A study of Mus musculus with 12 samples.

Results

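The genes described here were 40 immediate early and stress response genes, matched by symbol among the 32288 genes and transgenes of the deposited count table and followed through 4 groups of sorted osteoblast-lineage cells from mouse long bone. Immediate early genes are transcribed soon after a growth factor, cytokine, hormone or mechanical or chemical stress reaches a cell, because the kinases that carry the signal act on transcription factors that are already present. Many encode transcription factors themselves (the FOS, JUN, EGR, KLF and NR4A genes), and others shut the response down again by removing phosphates from kinases (DUSP genes), by destroying short-lived mRNAs (ZFP36 genes) or by blocking cytokine and NF-kB signals (Socs3, Nfkbia). In bone, pairs of FOS and JUN proteins form the factor AP-1, which is known for roles in both osteoblasts and osteoclasts, and a Fos transgene is known to give bone tumours in mice. Several of these genes are also known to respond when tissue is taken apart with enzymes, a step that all libraries here went through, so a level given below is that of sorted cells and not of bone left in place.

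By the study's methods, the mice were of a mixed genetic background. All carried Osx-CreERT2, a tamoxifen-activated Cre recombinase expressed from the osteoblast-lineage gene Osx (Sp7), and mTmG, a reporter that changes from membrane tdTomato to membrane GFP after recombination. All were given tamoxifen (in the study's legends, on more days and with a shorter wait before collection in controls than in induced mice), and GFP-positive cells of the metaphysis, the growing end of the bone shaft, were sorted from femurs and tibias. The controls were Osx-CreERT2; mTmG mice, called juvenile at the age of 3 weeks and adult at that of 8 weeks, with 4 libraries each, and each of these libraries pooled 2 male mice. In the c-Myc group (2 libraries) the mice also carried LSL-tTA and Col1a1::TetO–c-Myc, so that recombination switched on c-Myc, and in the c-Myc + R172H group (2 libraries) they carried Trp53-LSL-R172H as well, a dominant-negative form of the tumour suppressor p53. Induced mice were given tamoxifen at 3 weeks and analysed 7 days later. By the study's methods, tet-OFF mice drank water with a tetracycline drug until some time before analysis. The labels and the study's account of cell preparation give induced mice as of both sexes, whereas another part of its methods names only males for RNA sequencing. Induced mice were called 5 weeks old in the dissection protocol, and their bones were trimmed about 5 mm from the growth plate in place of 2 mm. The age at dissection, the trimmed length, the tamoxifen schedule and the tetracycline drug therefore changed together with the transgenes and cannot be told apart from them. Sex differed in part too, since control libraries were of males and induced mice, by the labels, of both sexes. In sorted bulk cells, a lower level of a gene can mean fewer cells expressing it or less RNA in each, and these cannot be told apart either. Nothing in the labels ties c-Myc or c-Myc + R172H libraries to a number of animals, so p-values there measure the spread between libraries, part of which may be technical.

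Libraries held 9066154 to 12648874 counts in the control groups and 12823338 to 15684412 in the induced groups, and 3 counts in a library corresponded to 0.137 to 0.417 CPM, the counts of a gene scaled to the depth of its library. The labels were checked on Myc, which lay at 39.8 to 52.2 CPM in the 8 control libraries and at 624 to 747 CPM in the 4 induced libraries. Xist, which is transcribed in female cells, reached 233 CPM in c-Myc replicate 2 and 211 CPM in c-Myc + R172H replicate 2 and at most 1.24 CPM elsewhere. Without c-Myc replicate 2, 13 of the 40 genes were called between c-Myc and juvenile cells (2 higher, 11 lower; 28% of all genes), and without c-Myc + R172H replicate 2, 13 between c-Myc + R172H and juvenile cells (3 higher, 10 lower; 29.9% of all genes). The lone library was assumed there to vary like the other groups. Osteoblast markers were present in every library, and their summed level was 395798 to 573294 CPM in juvenile, 229432 to 413167 in adult, 67763 to 90326 in c-Myc and 37111 to 38989 in c-Myc + R172H libraries. Most of this sum was Col1a1 in every library. Summed markers of erythroid and muscle cells stayed at or below 3.24 CPM. Those of haematopoietic cells were at 0.619 to 2.09 CPM in juvenile, 8.79 to 13.1 in adult, 8.84 to 9.04 in c-Myc and 2.53 to 5.67 CPM in c-Myc + R172H libraries, and those of endothelial cells at most at 0.722 CPM in juvenile and 3.2 in adult and at 6.27 to 8.44 CPM in induced libraries. Most of the induced endothelial sum was Egfl7 (122 to 131 counts a library), with Pecam1 at 5 to 13 counts and each other marker at most at 6. Chondrocyte markers summed to 8148 to 23663 CPM in juvenile and 33070 to 122002 CPM in adult libraries against 154 to 537 CPM in induced libraries, and all 8 were detected in every group. Osteoclast markers summed to 203 to 411 CPM in control and 52.2 to 105 CPM in induced libraries. The part of these cell types in the age and induction results below was not tested.

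All 40 genes passed the filter on low counts, and together they took 0.416 to 0.506% of the counts of a juvenile library, 0.243 to 0.602% of an adult, 0.521 to 0.531% of a c-Myc and 0.678 to 0.681% of a c-Myc + R172H library. Divided by the length of the annotated exons, which allows levels to be compared between genes, Fos was the most abundant of the 40 in juvenile cells, at 516 ± 81.8 CPM per kilobase (SD, n = 4). Jund followed at 199.5 ± 21.9 CPM per kilobase, and the range of Fos (399 to 585 CPM per kilobase) lay above that of Jund. Jun (154), Junb (143), Fosb (122), Ier2 (118), Egr1 (114), Socs3 (96.5) and Klf4 (92.6 CPM per kilobase) came next, each with a range that overlapped that of its neighbour. Fos and Jund also held the first and second place in the adult, c-Myc and c-Myc + R172H groups. The lowest in juvenile cells were Nr4a3 at 0.658 and Fosl1 at 0.376 CPM per kilobase, so the members of this programme differed widely in level before any comparison was made.

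**Figure D1:**
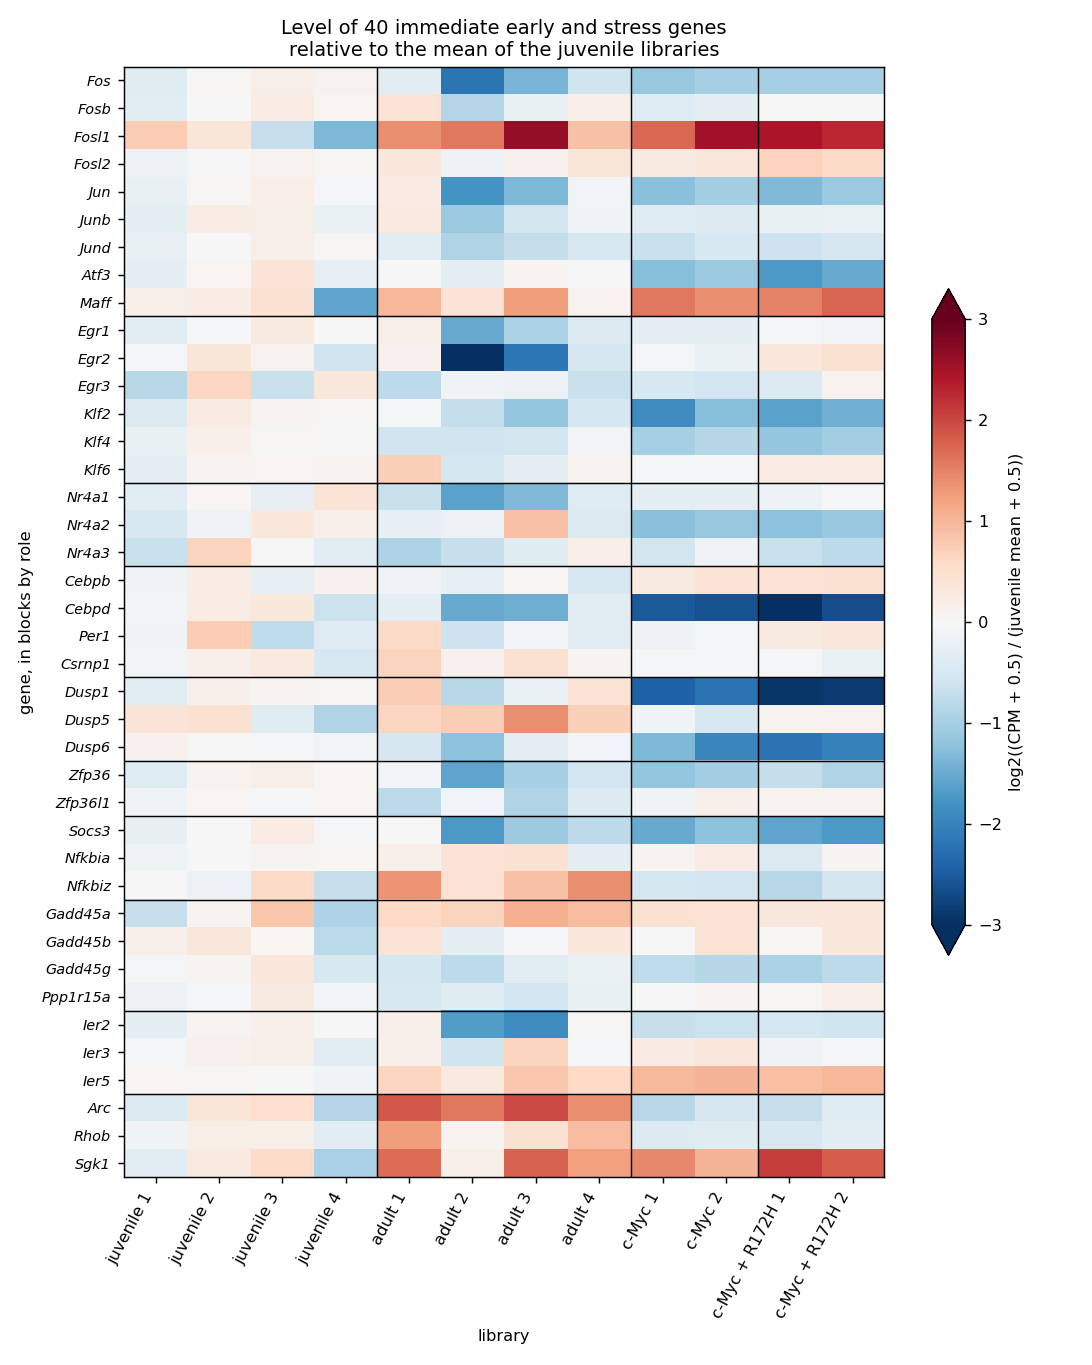
Level of each of the 40 genes (rows, in blocks by role) in each of the 12 libraries (columns), as the log2 ratio of CPM + 0.5 to the juvenile mean + 0.5, with red above and blue below the juvenile mean. Adult replicates 2 and 3 are blue for Fos, Jun, Egr1, Egr2, Ier2 and Socs3 where adult replicate 1 is near the juvenile level, and all 4 induced libraries are blue for Dusp1, Cebpd and Dusp6 and red for Sgk1, Maff and Fosl1.

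Fold changes were taken from 2 fits of edgeR's quasi-likelihood test with Benjamini-Hochberg adjustment over all genes tested, and every adjusted p below comes from these unless another setting is named. A gene was called at an adjusted p under 0.05 between the ages and between the induced groups, and at an adjusted p under 0.05 with a log2 fold change of at least 1 in either direction between an induced group and the juvenile cells. Between juvenile and adult cells 4 of the 40 were called, 1 higher and 3 lower in juvenile cells, and 5.12% of all 11345 genes tested were called (1.89% higher, 3.23% lower). That count was 1 without juvenile replicate 4 (2.86% of all genes) and 2 without juvenile replicate 2 (2.45%) or adult replicate 3 (4.04%). It was 7 without adult replicate 2 (7.64%), and 10 with DESeq2 (7.05%) or with all 12 libraries in the fit (8.41%). At an unadjusted p under 0.05 there were 19 (19.7% of all genes). Between c-Myc and juvenile cells 13 of 40 were called, 3 higher and 10 lower, where 34.4% of 12588 genes were (18.4% higher, 16% lower). Between c-Myc + R172H and c-Myc cells edgeR called 0 of 40 (0.469% of all genes), with 6 at an unadjusted p under 0.05 (4.68% of all genes). DESeq2 called 1 of the 35 members it tested (2.78% of 7220 genes tested). Fitted to these 2 groups alone, edgeR called 11, 9 higher and 2 lower with R172H. Of all genes 5.17% were called in that fit, 1.55% higher and 3.62% lower. Between c-Myc + R172H and juvenile cells, a comparison that shares the juvenile libraries with the c-Myc one, 12 were called, 3 higher and 9 lower (37.5% of all genes, 19.6% higher and 17.9% lower). By adjusted p alone 22 of 40 would have been called in each of these comparisons, where 53.4% of all genes were in c-Myc and 56.7% in c-Myc + R172H cells. Of the 40 genes, 11 were called in both comparisons with juvenile cells, Fos and Zfp36 in the c-Myc one alone, Klf4 in the c-Myc + R172H one alone, and 22 in no comparison. This overlap was not counted over all genes, and the comparisons share libraries, so no trait of the 40 is read from it.

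Several calls against juvenile cells, and the signs of some uncalled genes, rested on the scaling of the libraries. The 3 most abundant genes took 57.1 to 65.3% of the counts of a juvenile library and 35.2 to 46.1% of an induced one, and TMM normalization, used throughout, corrects for such a difference. Scaled by library totals alone, the median log2 fold change of all genes moved from 0.04 to 0.87 in the c-Myc comparison and from 0.08 to 1.12 in the c-Myc + R172H comparison. On that scale 8 of the 40 were called higher and 2 lower in c-Myc cells, and 16 higher and 3 lower in c-Myc + R172H cells. Of all genes, 41.6% were then called higher and 5.56% lower in c-Myc cells and 49.8% higher and 6.9% lower in c-Myc + R172H cells, which is also the background of the counts with library totals below. Of the 13 genes called in c-Myc cells, 5 kept their call (Fosl1, Maff, Sgk1, Cebpd and Dusp1) and none changed sign. The 8 that lost it (Fos, Jun, Atf3, Klf2, Nr4a2, Dusp6, Zfp36 and Socs3) were then at -0.89 to -0.23. Of the 12 called in c-Myc + R172H cells, 6 kept it, these 5 and Dusp6, and the other 6 (Jun, Atf3, Klf2, Klf4, Nr4a2 and Socs3) were at -0.60 to -0.05. Changes against juvenile cells below are therefore changes relative to the bulk of genes. Between the ages, library totals gave a median of -0.24 over all genes and 5 calls, 0 higher and 5 lower in juvenile cells.

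The FOS genes code for the subunits of AP-1 that must pair with a JUN protein to bind DNA. Fos was at 937, 1246, 1376 and 1299 CPM in the juvenile libraries, 964, 264, 462 and 799 in the adult, 557 and 611 in the c-Myc and 613 and 607 CPM in the c-Myc + R172H libraries. The highest adult library reached the juvenile range, the other adult libraries lay below it, and all induced libraries lay below every juvenile one. Fos fell in c-Myc cells (log2 fold change -1.08 ± 0.13 (SE), adjusted p = 1.85e-05), and its difference in c-Myc + R172H cells (-0.98 ± 0.13, adjusted p = 3.36e-05) was just short of the fold that a call required. Scaled by library totals, these values were -0.23 and 0.08, which are -1.10 and -1.04 relative to the median of all genes on that scale. With all 12 libraries in the fit, the c-Myc difference in Fos had an adjusted p of 0.0722. The age difference in Fos, 0.96 ± 0.38 higher in juvenile cells, had an adjusted p of 0.215 and was not called.

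Fosb, which codes for a close relative of Fos, was at 613, 752, 885 and 797 CPM in juvenile, 1012, 416, 656 and 879 in adult, 586 and 630.0 in c-Myc and 769.8 and 762 in c-Myc + R172H libraries. It was called in no comparison, and its adult libraries spread from below the lowest juvenile library to above the highest. Fosl2, a FOS gene without a strong activation domain, was at 99.0, 111, 119 and 112 CPM in juvenile, 137, 99.2, 119.9 and 142 in adult, 133 and 140.4 in c-Myc and 178 and 165 CPM in c-Myc + R172H libraries. Its 4 induced libraries all lay above the juvenile ones, at log2 fold changes of 0.29 ± 0.09 (adjusted p = 0.0182) in c-Myc and 0.65 ± 0.09 (adjusted p = 6.21e-05) in c-Myc + R172H cells, both under the fold that a call required. Between the induced groups Fosl2 differed by 0.36 ± 0.11 with an adjusted p of 0.317.

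Fosl1, which codes for FRA1, moved the other way from Fos and had the lowest level of the 40 per exon length in juvenile cells. It was at 1.64, 1.13, 0.278 and 0 CPM in the juvenile libraries, and at 2.83, 3.27, 7.37 and 1.81 in adult, 3.65 and 6.80 in c-Myc and 6.40 and 5.55 CPM in c-Myc + R172H libraries. The juvenile values stand for 18, 11, 2 and 0 counts, so the size of its fold changes rests on few reads. All adult and induced libraries lay above all juvenile ones. Fosl1 rose in c-Myc cells (2.63 ± 0.67, adjusted p = 0.00536) and in c-Myc + R172H cells (2.86 ± 0.67, adjusted p = 0.00285). Without c-Myc replicate 2, the c-Myc value was 2.14 with an adjusted p of 0.0759. The age difference (-2.24 ± 0.78, juvenile minus adult) had an adjusted p of 0.102.

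Among the JUN genes, Jun codes for the strongest activator of the family. Its level was 422, 507, 567 and 470.3 CPM in juvenile, 579, 142, 192 and 466 in adult, 205 and 242 in c-Myc and 196 and 228 CPM in c-Myc + R172H libraries. The adult libraries fell on both sides of the juvenile range, with replicates 1 and 4 within or above it and replicates 2 and 3 below, and the age difference was 0.50 ± 0.46 (adjusted p = 0.639). Jun fell in c-Myc cells (-1.16 ± 0.13, adjusted p = 8.16e-06) and in c-Myc + R172H cells (-1.20 ± 0.13, adjusted p = 5.25e-06). With all 12 libraries in the fit, the adjusted p was 0.107 and 0.0863. Scaled by library totals, the Jun values were -0.32 and -0.15, or -1.19 and -1.27 relative to the median of all genes.

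Junb and Jund code for JUN proteins that are known to restrain growth in many cell types. Junb was at 273, 387, 371 and 287 CPM in juvenile, 401, 151, 226 and 303 in adult, 252 and 247 in c-Myc and 283 and 288 CPM in c-Myc + R172H libraries and was called in no comparison. Jund was at 287, 328, 376 and 339.5 CPM in juvenile, 263, 178, 201 and 238 in adult, 209.9 and 239 in c-Myc and 215 and 236 CPM in c-Myc + R172H libraries. Every juvenile library was above every adult and induced library. Jund was higher in juvenile than in adult cells by 0.59 ± 0.14 (adjusted p = 0.0210), the only one of the 40 called in that direction. The call rested on single libraries, since the adjusted p was 0.0577 without juvenile replicate 2, 0.0578 without replicate 3, 0.0579 without replicate 4 and 0.0577 without adult replicate 3, at differences of 0.53 to 0.60. Scaled by library totals it was 0.32 (adjusted p = 0.236). In c-Myc cells Jund was at -0.59 ± 0.11 (adjusted p = 6.53e-04), under the fold that a call required.

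**Figure D2:**
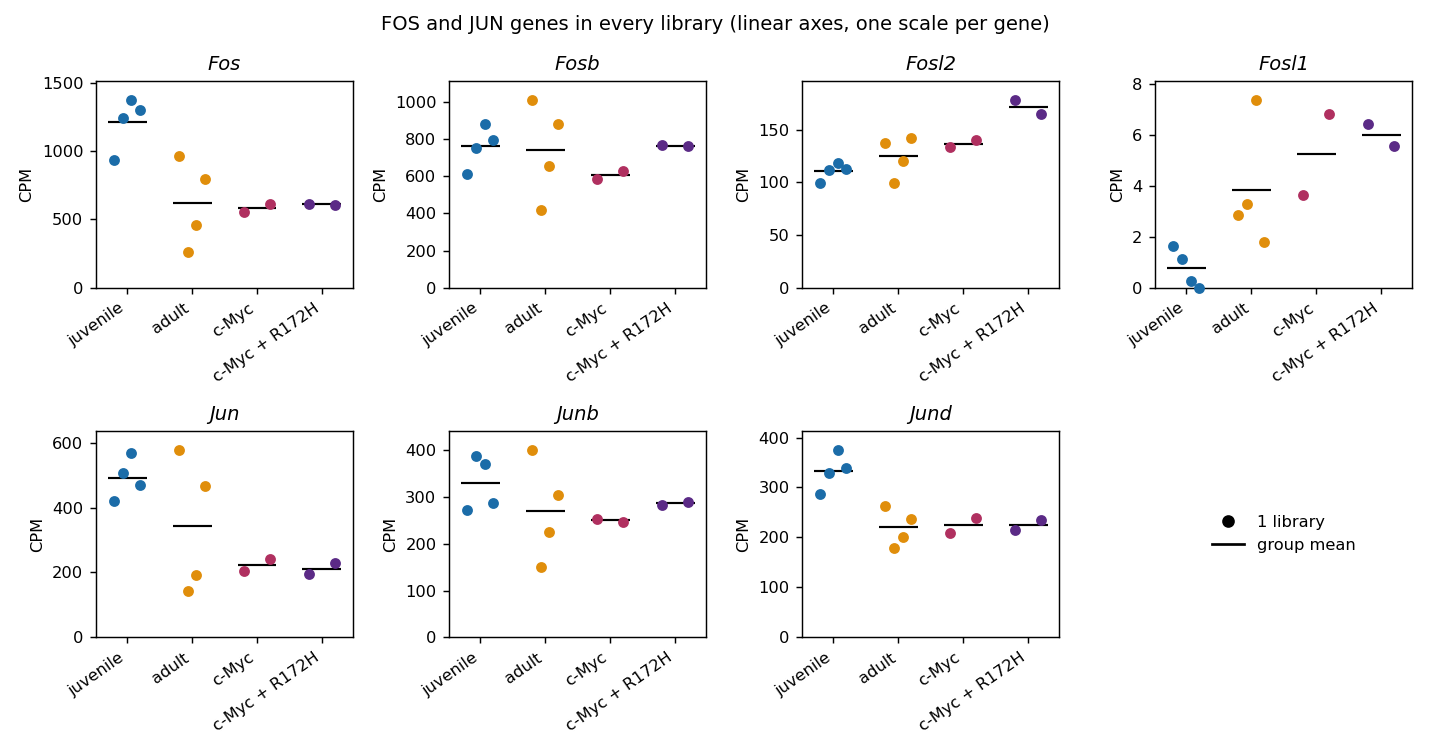
CPM of the 7 FOS and JUN genes (1 panel per gene, linear axes from 0) in the juvenile, adult, c-Myc and c-Myc + R172H groups, with a point per library and a line at the group mean. For Fos and Jun the induced libraries lie below all juvenile ones while the adult libraries lie on both sides of the induced ones, and for Fosl1 and Fosl2 the induced libraries lie above the juvenile ones.

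The make-up of each family was also described within a library, which no scaling between libraries can change. Fos made up 79.4 ± 0.694% (SD, n = 4) of the FOS family per exon length in juvenile libraries (78.5 to 80.0%), 64.7 ± 5.24% in adult (58.8 to 69.8%), 68.5 ± 0.161% (n = 2) in c-Myc and 64.4 ± 0.187% (n = 2) in c-Myc + R172H libraries. The adult and induced shares all lay below the juvenile range. The share of Fosb was 18.8% in juvenile against 31.0%, 26.9% and 30.5% in adult, c-Myc and c-Myc + R172H cells. That of Fosl2 was 1.77% against 3.66%, 3.90% and 4.40%, and Fosl1 stayed at or under 1.14% of the family in every library. Within the JUN family, Jun made up 31.0 ± 0.505% in juvenile (30.3 to 31.5%), 28.0 ± 8.13% in adult (20.5 to 35.3%), 22.3 ± 1.27% in c-Myc and 20.4 ± 1.05% in c-Myc + R172H libraries. The adult share of Jun ran from the level of the induced libraries to above that of the juvenile ones. Junb held 28.7%, 32.7%, 34.7% and 38.2% in the same order of groups and Jund 40.3%, 39.3%, 43.0% and 41.4%.

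**Figure D3:**
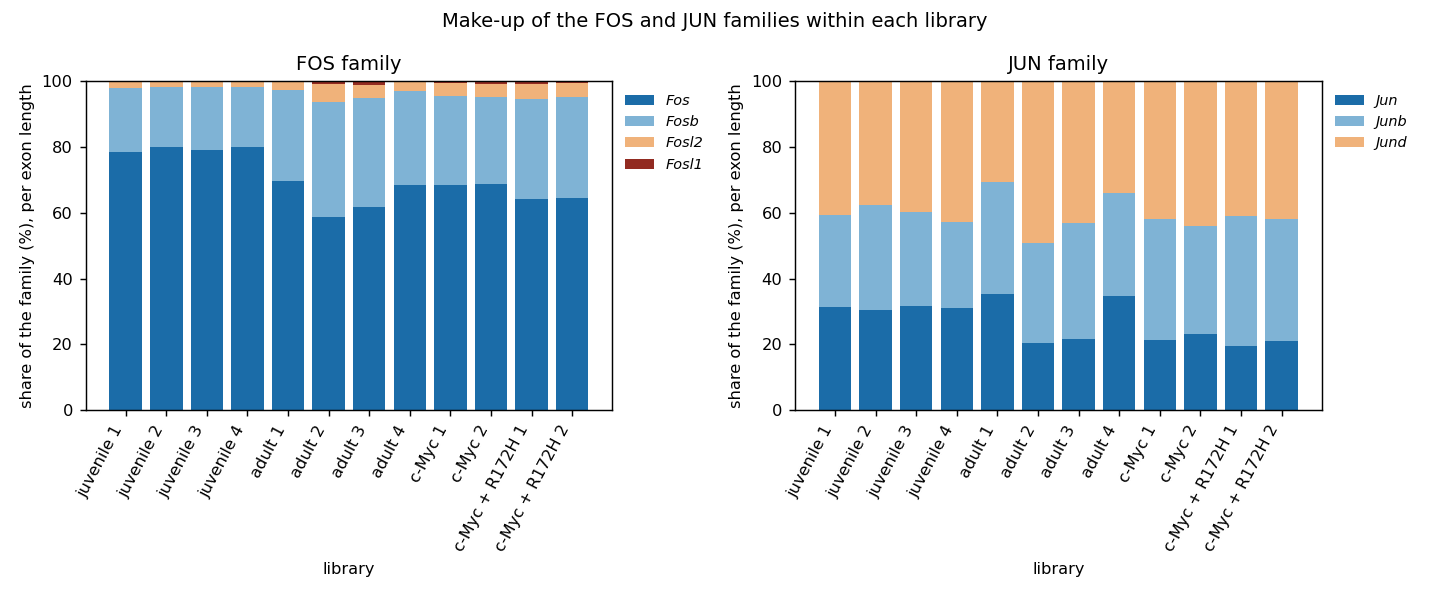
Share of each gene in its family within every library, in percent of the summed level per exon length, for the FOS genes and the JUN genes. The share of Fos is 78.5 to 80.0% in the juvenile libraries and 58.8 to 69.8% in the adult ones, with the c-Myc libraries at 68.4 to 68.6% and the c-Myc + R172H libraries at 64.3 to 64.5%.

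Atf3 and Maff code for further proteins with the same type of dimerization domain, ATF3 as a stress-induced repressor and MAFF as a small MAF protein without an activation domain. Atf3 was at 94.1, 121, 150.4 and 97.4 CPM in juvenile, 117, 96.3, 123 and 117 in adult, 47.8 and 53.2 in c-Myc and 34.6 and 40.5 CPM in c-Myc + R172H libraries. Its adult libraries lay within the juvenile range, the induced libraries lay below both control groups, and it fell in c-Myc (-1.21 ± 0.18, adjusted p = 8.94e-05) and in c-Myc + R172H cells (-1.61 ± 0.18, adjusted p = 8.91e-06). Maff was at 5.02, 5.16, 6.12 and 1.12 CPM in juvenile, 9.21, 5.98, 11.1 and 4.69 in adult, 14.1 and 12.4 in c-Myc and 13.1 and 15.7 CPM in c-Myc + R172H libraries, with juvenile replicate 4 well below the other 3. Maff rose in c-Myc (1.57 ± 0.39, adjusted p = 0.00455) and in c-Myc + R172H cells (1.73 ± 0.39, adjusted p = 0.00225), and no induced library overlapped a juvenile one.

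The EGR genes code for zinc finger factors that are switched on through serum response factor and its partners. Egr1 was at 414, 505, 617 and 517 CPM in juvenile, 577, 179, 266 and 389 in adult, 429 and 424 in c-Myc and 495 and 488 CPM in c-Myc + R172H libraries. Unlike Fos and Jun, Egr1 overlapped between the juvenile and both induced groups, with differences of -0.29 ± 0.12 (adjusted p = 0.0629) and -0.05 ± 0.12 (adjusted p = 0.738). Scaled by library totals, the c-Myc + R172H value was 1.01 (adjusted p = 8.47e-06) and would have been called higher. Egr2, also known from myelinating nerve cells, was at 33.7, 44.4, 36.7 and 22.4 CPM in juvenile, 37.4, 3.50, 7.24 and 24.2 in adult, 33.4 and 29.9 in c-Myc and 42.5 and 47.6 CPM in c-Myc + R172H libraries. Adult replicates 2 and 3 were far below adult replicates 1 and 4, which overlapped the juvenile libraries, and the age difference of 0.90 ± 0.69 had an adjusted p of 0.564. Egr3 was at 4.57, 13.5, 5.14 and 10.9 CPM in juvenile, 4.76, 7.90, 7.5 and 5.22 in adult, 5.98 and 5.55 in c-Myc and 6.27 and 9.27 CPM in c-Myc + R172H libraries, and it was called in no comparison.

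RefSeq (GRCm38.p6) gave the bases before the start of 33 of the 40 genes, in 48 windows of 250 bases. The CArG box, the site of serum response factor, was present on either strand in windows of Egr2, Dusp5 and Zfp36 and of 1.62% of all 27025 genes. The cAMP response element TGACGTCA was present in those of Maff, Dusp1 and Ppp1r15a (1.77% of all genes), and the STAT site TTCNNNGAA in those of Per1, Zfp36, Socs3 and Sgk1 (8.13%). An AP-1-like pattern, TGANTCA with any middle base, was present in those of Csrnp1 (as TGAGTCA) and Zfp36l1 (as TGATTCA), and of 7.82% of all genes. All 4 motifs read the same on either strand, and overlap between motifs was allowed. A match is a description of letters in a window and not of a bound site. The windows of Egr2, Dusp5, Dusp1 and Socs3 are shown, as far as they lie outside annotated exons of the gene, because these genes carry the largest adult spread, the phosphatase results and the cytokine feedback result. Capitals mark the motif, a CArG box in Egr2 and a pair of adjoining ones in Dusp5, a cAMP response element in Dusp1 and a STAT site in Socs3, and each sequence reads in the direction of its gene.
Egr2, chr10:67537619-67537868, plus strand: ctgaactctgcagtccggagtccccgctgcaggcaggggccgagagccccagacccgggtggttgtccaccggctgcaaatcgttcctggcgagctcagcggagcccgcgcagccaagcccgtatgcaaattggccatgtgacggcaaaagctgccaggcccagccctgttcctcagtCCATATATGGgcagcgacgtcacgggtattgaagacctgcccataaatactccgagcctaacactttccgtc
Dusp5, chr19:53528895-53529108, plus strand: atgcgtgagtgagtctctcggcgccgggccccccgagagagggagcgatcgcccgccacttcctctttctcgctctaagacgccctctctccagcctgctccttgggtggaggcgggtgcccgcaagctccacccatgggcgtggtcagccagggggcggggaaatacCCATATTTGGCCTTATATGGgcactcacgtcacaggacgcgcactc
Dusp1, chr17:26508520-26508722, minus strand: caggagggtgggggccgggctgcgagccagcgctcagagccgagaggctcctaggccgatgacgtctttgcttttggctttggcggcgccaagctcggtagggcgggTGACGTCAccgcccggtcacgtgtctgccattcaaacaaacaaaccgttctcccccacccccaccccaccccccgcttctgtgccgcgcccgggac
Socs3, chr11:117969452-117969616, minus strand: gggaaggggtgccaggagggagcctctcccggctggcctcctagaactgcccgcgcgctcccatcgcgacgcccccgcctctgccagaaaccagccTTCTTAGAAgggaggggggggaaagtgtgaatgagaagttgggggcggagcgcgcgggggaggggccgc

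RefSeq gives Egr2 5 windows, and the third in order along the chromosome is shown. In Dusp5 the stretch also lies over an exon of AC137853.2, a gene of the opposite strand. Genes that share a motif were not called alike. Among the CArG genes Zfp36 was called lower in c-Myc cells and Egr2 and Dusp5 were not called, and among the cAMP response element genes Dusp1 was called lower, Maff higher and Ppp1r15a not at all.

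KLF2, KLF4 and KLF6 are zinc finger factors that are known to respond to flow, stress and growth signals. Klf2 was at 95.2, 152, 135 and 132 CPM in juvenile, 125, 78.5, 56.9 and 89.4 in adult, 35.2 and 52.4 in c-Myc and 41.7 and 46.7 CPM in c-Myc + R172H libraries, and it fell in c-Myc (-1.58 ± 0.20, adjusted p = 2.36e-05) and in c-Myc + R172H cells (-1.53 ± 0.19, adjusted p = 2.58e-05). Klf4 was at 244, 316, 290.2 and 279 CPM in juvenile, 187, 187, 192 and 267 in adult, 141 and 157 in c-Myc and 126 and 136 CPM in c-Myc + R172H libraries. All induced libraries lay below all juvenile ones for both genes. Klf4 was called in c-Myc + R172H cells (-1.10 ± 0.11, adjusted p = 3.82e-06) and fell short of the required fold in c-Myc cells (-0.94 ± 0.11, adjusted p = 1.52e-05), while the difference between the induced groups was -0.16 ± 0.12 (adjusted p = 1.00). Klf6 stayed at 96.3 to 125 CPM in juvenile, 81.5 to 192 in adult and 112 to 136 CPM in induced libraries and was not called.

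NR4A receptors are nuclear receptors whose activity is set mainly by how much is made, and in osteoblasts they are known to answer to parathyroid hormone. Nr4a1 was at 64.9, 85.5, 69.7 and 109 CPM in juvenile, 51.6, 26.6, 32.7 and 62.4 in adult, 67.5 and 68.3 in c-Myc and 72.6 and 79.4 CPM in c-Myc + R172H libraries. Every adult library was below every juvenile one, yet the difference of 0.91 ± 0.27 had an adjusted p of 0.0809. Nr4a2 was at 23.0, 30.3, 40.3 and 36.1 CPM in juvenile, 27.1, 28.8, 60.0 and 23.9 in adult, 13.4 and 14.5 in c-Myc and 13.6 and 14.5 CPM in c-Myc + R172H libraries, and it fell in c-Myc (-1.23 ± 0.21, adjusted p = 3.04e-04) and c-Myc + R172H cells (-1.19 ± 0.21, adjusted p = 3.54e-04). Within the family and per exon length, the share of Nr4a1 was 72.8% in juvenile, 57.2% in adult, 83.1% in c-Myc and 85.0% in c-Myc + R172H cells, and that of Nr4a2 25.1%, 40.5%, 14.7% and 13.6%. Nr4a3 was at 2.28, 6.60, 3.89 and 2.98 CPM in juvenile, 1.82, 2.26, 2.97 and 4.58 in adult, 2.51 and 3.63 in c-Myc and 2.29 and 2.08 CPM in c-Myc + R172H libraries and was not called.

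C/EBP-beta and C/EBP-delta are leucine zipper factors that are induced by cytokines and glucocorticoids and are known to act with RUNX2 on osteoblast genes. Cebpd showed the largest fall of the 40 in both comparisons with juvenile cells. It was at 38.6, 47.8, 50.5 and 25.7 CPM in juvenile, 33.1, 13.9, 14.5 and 32.0 in adult, 6.66 and 6.18 in c-Myc and 4.12 and 6.05 CPM in c-Myc + R172H libraries, with log2 fold changes of -2.68 ± 0.28 (adjusted p = 6.09e-06) and -2.99 ± 0.29 (adjusted p = 2.48e-06). Its call held with library totals too, at -1.85 in c-Myc cells. Cebpb lay at 33.0 to 45.8 CPM in juvenile, 27.8 to 40.5 in adult and 47.3 to 54.0 CPM in induced libraries, above the juvenile range in all 4 but under the required fold. The clock gene Per1 (27.5 to 80.2 CPM in control and 42.2 to 59.5 CPM in induced libraries) and Csrnp1 (23.7 to 53.0 and 28.9 to 32.3 CPM), a nuclear protein first known as induced by AXIN, were called nowhere.

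The dual specificity phosphatases DUSP1, DUSP5 and DUSP6 switch off MAP kinases, DUSP1 mostly p38 and JNK, DUSP5 nuclear ERK and DUSP6 cytoplasmic ERK. Dusp1 was at 144, 202, 191 and 187 CPM in juvenile, 304, 101, 158 and 239.8 in adult, 33.5 and 38.4 in c-Myc and 23.6 and 24.3 CPM in c-Myc + R172H libraries. The induced libraries were far below every control library, and Dusp1 fell in c-Myc (-2.35 ± 0.14, adjusted p = 7.29e-08) and in c-Myc + R172H cells (-2.91 ± 0.15, adjusted p = 1.33e-08). It kept its call with library totals (-1.51, adjusted p = 2.37e-06). Both c-Myc + R172H libraries were also below both c-Myc libraries, and this difference of -0.56 ± 0.15 had the smallest p of the 40 in that comparison, but an adjusted p of 0.235 (DESeq2 -0.58, adjusted p = 0.0317).

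Dusp6 was at 21.4, 19.6, 18.8 and 18.6 CPM in juvenile, 13.8, 8.01, 16.3 and 18.4 in adult, 7.35 and 4.65 in c-Myc and 3.84 and 4.46 CPM in c-Myc + R172H libraries. It fell in c-Myc (-1.72 ± 0.24, adjusted p = 5.71e-05) and c-Myc + R172H cells (-2.23 ± 0.25, adjusted p = 7.81e-06). Dusp5 had another pattern, at 18.2, 19.3, 10.6 and 7.20 CPM in juvenile, 21.8, 23.4, 37.0 and 23.0 in adult, 12.5 and 9.75 in c-Myc and 14.6 and 14.8 CPM in c-Myc + R172H libraries. Its adult libraries all lay above its juvenile ones (-0.92 ± 0.28, juvenile minus adult, adjusted p = 0.0657), and its induced libraries lay within the juvenile range. The make-up of the 3 phosphatases was described within each library. Per exon length Dusp1 made up 82.0% in juvenile, 78.0% in adult, 62.9% in c-Myc and 49.8% in c-Myc + R172H cells, and Dusp5 8.47%, 15.8%, 26.0% and 41.1%.

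ZFP36 proteins bind AU-rich elements in short-lived mRNAs, those of early genes and cytokines among them, and bring about their decay. Zfp36 was at 171, 241, 253 and 235 CPM in juvenile, 211, 74.9, 112 and 151 in adult, 97.9 and 109.8 in c-Myc and 137 and 119.7 CPM in c-Myc + R172H libraries. It fell in c-Myc cells (-1.13 ± 0.14, adjusted p = 2.88e-05), and in c-Myc + R172H cells its -0.80 ± 0.14 (adjusted p = 3.81e-04) was under the required fold. Zfp36l1 was at 77.0 to 86.7 CPM in juvenile, 44.1 to 77.9 in adult and 76.4 to 91.8 CPM in induced libraries and was called nowhere.

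Socs3 blocks signalling from the receptors of the interleukin 6 family. It was at 234, 280.1, 328 and 273 CPM in juvenile, 275, 84.2, 130.1 and 161 in adult, 97.1 and 118 in c-Myc and 92.3 and 83.6 CPM in c-Myc + R172H libraries, and it fell in c-Myc (-1.39 ± 0.13, adjusted p = 2.66e-06) and c-Myc + R172H cells (-1.66 ± 0.14, adjusted p = 5.73e-07). Nfkbia, which holds NF-kB in the cytoplasm, lay at 22.5 to 25.9 CPM in juvenile, 19.9 to 33.6 in adult and 17.9 to 28.9 CPM in induced libraries and was not called. Nfkbiz, a nuclear partner of NF-kB, was at 27.5, 23.7, 40.5 and 16.5 CPM in juvenile, 70.1, 36.8, 49.9 and 72.0 in adult, 18.8 and 18 in c-Myc and 14.9 and 18.4 CPM in c-Myc + R172H libraries. It was lower in juvenile than in adult cells (-1.09 ± 0.27, adjusted p = 0.0430) although juvenile replicate 3 was above adult replicate 2. Leaving out any one of juvenile replicates 1, 2 or 4 or adult replicates 1, 3 or 4 ended the call, with adjusted p from 0.0627 to 0.128.

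GADD45 proteins act on stress kinases, the cell cycle and DNA repair, and PPP1R15A removes the phosphate from eIF2alpha that stress kinases place there. None of the 4 genes was called in any comparison. Gadd45g was at 41.5, 45.1, 54.1 and 30.4 CPM in juvenile, 29.5, 24.6, 34.0 and 37.4 in adult, 25.1 and 23.3 in c-Myc and 21.8 and 24.8 CPM in c-Myc + R172H libraries, with all induced libraries below the juvenile ones at -0.84 ± 0.19 (adjusted p = 0.00284) and -0.87 ± 0.19 (adjusted p = 0.00211). Gadd45b lay at 22.1 to 51.6 CPM in control and 38.8 to 51.8 CPM in induced libraries. Gadd45a, a known p53 target, was at 2.28, 4.23, 7.51 and 1.86 CPM in juvenile, 6.27, 6.66, 9.05 and 7.99 in adult, 5.66 and 5.44 in c-Myc and 5.12 and 5.11 CPM in c-Myc + R172H libraries, and its difference between the induced groups was -0.09 ± 0.52 (adjusted p = 1.00). Ppp1r15a was at 31.6 to 43.2 CPM in juvenile, 24.2 to 31.0 in adult and 36.0 to 41.5 CPM in induced libraries.

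The IER genes are early response genes whose products are less well defined. Ier5 was at 37.6, 36.8, 36.6 and 32.9 CPM in juvenile, 56.6, 44.1, 63.1 and 55.1 in adult, 71.1 and 73.6 in c-Myc and 67.5 and 72.0 CPM in c-Myc + R172H libraries. Its juvenile libraries were the lowest of all 12, and it was lower in juvenile than in adult cells (-0.61 ± 0.14, adjusted p = 0.0155). Without juvenile replicate 4 that adjusted p was 0.0514, at -0.57. Against juvenile cells its differences in c-Myc (0.98 ± 0.11, adjusted p = 7.02e-06) and c-Myc + R172H cells (0.96 ± 0.11, adjusted p = 7.49e-06) were just under the required fold, and with library totals they were 1.81 and 2.00. Ier2 was at 148, 191, 199 and 180.4 CPM in juvenile, 199, 56.3, 48.0 and 184 in adult, 111 and 114 in c-Myc and 124 and 119 CPM in c-Myc + R172H libraries, so that adult replicates 2 and 3 lay below all induced libraries and adult replicates 1 and 4 above them, at the juvenile level. Ier3 lay at 18.1 to 44.0 CPM in control and 25.7 to 34.9 CPM in induced libraries. Neither Ier2 nor Ier3 was called.

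Arc, Rhob and Sgk1 code for early gene products that work outside the nucleus, a capsid-like protein known from synapses, a small GTPase of the cytoskeleton and endosomes, and a kinase induced by glucocorticoids and serum. Arc was at 15.7, 27.9, 30.9 and 11.5 CPM in juvenile, 80.0, 64.9, 85.9 and 57.3 in adult, 11.9 and 15.1 in c-Myc and 13.1 and 16.4 CPM in c-Myc + R172H libraries. It showed the largest called age difference of the 40, with every adult library above every other library (-1.76 ± 0.28, juvenile minus adult, adjusted p = 0.00617), and of the 4 age calls it was the 1 that held whichever library was left out. Rhob was at 76.5, 92.5, 92.5 and 65.4 CPM in juvenile, 197, 86.8, 113 and 156 in adult, 61.0 and 63.1 in c-Myc and 58.1 and 65.0 CPM in c-Myc + R172H libraries, and its age difference of -0.77 ± 0.22 had an adjusted p of 0.0701.

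Sgk1 was at 16.6, 25.6, 30.6 and 10.4 CPM in juvenile, 68.1, 23.7, 71.8 and 49.2 in adult, 57.5 and 43.0 in c-Myc and 89.6 and 74.6 CPM in c-Myc + R172H libraries. All induced libraries lay above the juvenile ones, and Sgk1 rose in c-Myc (1.26 ± 0.29, adjusted p = 0.00306) and c-Myc + R172H cells (1.99 ± 0.29, adjusted p = 8.68e-05). Without c-Myc replicate 1 the c-Myc value was 1.04 with an adjusted p of 0.0514. Between the induced groups, where both c-Myc + R172H libraries were above both c-Myc ones, Sgk1 had the largest difference of the 40 (0.74 ± 0.33) and an adjusted p of 1.00.

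**Figure D4:**
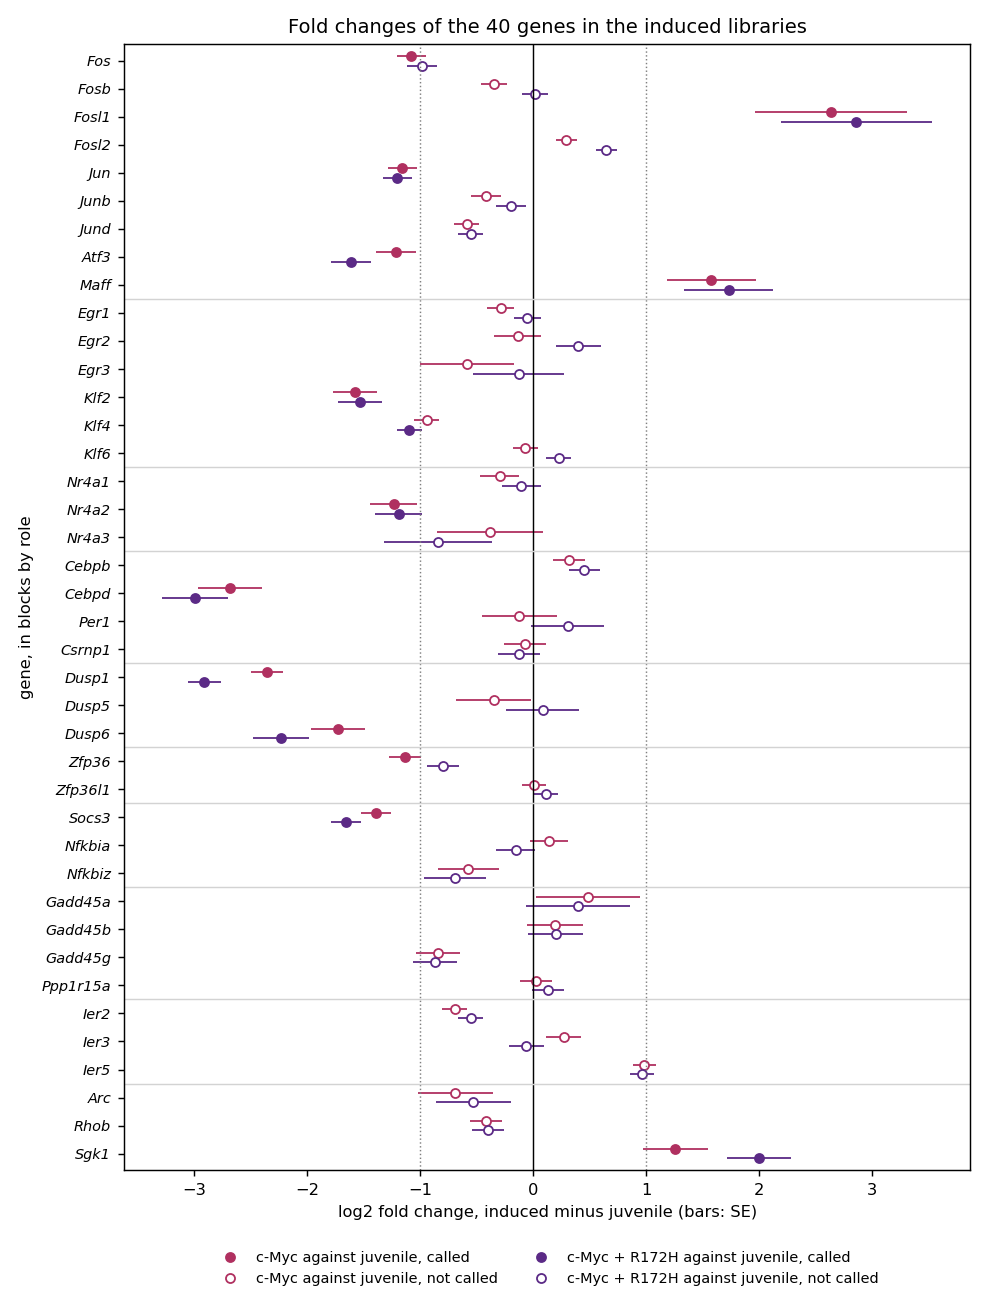
Log2 fold changes of the 40 genes (rows, in blocks by role) against juvenile cells in c-Myc and c-Myc + R172H cells, on the TMM scale, with bars of 1 SE, filled points for called genes and open points for others. The largest called falls are those of Cebpd (-2.68 and -2.99) and Dusp1 (-2.35 and -2.91). The largest called rise is that of Fosl1 (2.63 and 2.86), whose size rests on juvenile counts of 18, 11, 2 and 0.

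Over the 40 genes, the log2 fold change had a median of 0.11 between juvenile and adult cells (all genes tested 0.00), -0.37 between c-Myc and juvenile cells (0.04), 0.07 between the induced groups (-0.003) and -0.14 between c-Myc + R172H and juvenile cells (0.08). The juvenile and adult groups did not overlap for 8 of the 40, 4 higher (Jund, Nr4a1, Dusp6 and Ppp1r15a) and 4 lower in juvenile cells (Fosl1, Dusp5, Ier5 and Arc), beside 6.17% and 6.75% of all genes. The c-Myc and juvenile groups did not overlap for 23, of which 7 were higher and 16 lower in c-Myc cells (35.7% and 28.8% of all genes), and the c-Myc + R172H and juvenile groups for 23, 8 higher and 15 lower (36.5% and 30.2%). Between the induced groups, with 2 libraries a side, 24 did not overlap, 14 higher and 10 lower with R172H (17.6% and 27.4% of all genes). Differences ran from -0.56 to 0.74, and the fit that included the juvenile libraries called none. Besides Dusp1 and Fosl2, the genes at an unadjusted p under 0.05 there were Fosb (0.36 ± 0.13), Klf6 (0.29 ± 0.12), Egr2 (0.54 ± 0.23) and Sgk1, named after their values were seen.

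Adult libraries differed among themselves more than juvenile ones did over these genes. The ratio of the highest to the lowest library (CPM + 0.5) had a median of 2.23 over the 40 genes in adult cells, where all genes tested had 1.62, and of 1.49 in juvenile cells, where all genes had 1.57. It was above 2 for 23 of the 40 in adult cells (29.3% of all genes) and for 11 in juvenile cells (28.4% of all genes), and 26 of the 40 had a wider adult than juvenile spread. Egr2 had the widest adult ratio, 9.49. Adult replicate 2 was the lowest adult library for 25 of the 40 (62.5%, against 28.7% of all genes) and adult replicate 1 the highest for 18 (45%, against 25.8%). Genes of different roles took part in this order, from Fos, Jun, Egr1 and Egr2 to Socs3, Zfp36, Dusp1 and Rhob, while Arc, Atf3, Jund and Ier5 differed less between adult libraries. Among juvenile libraries replicate 1 was the lowest for 22 of the 40 (55%, against 22.2% of all genes) and replicate 3 the highest for 22 (55%, against 29%), at smaller ratios.

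Other measures moved along with this order of adult libraries. For adult replicates 1, 2, 3 and 4 the 40 genes took 0.602, 0.243, 0.337 and 0.567% of counts. In the same order chondrocyte markers summed to 122002, 33070, 53374 and 71925 CPM, osteoblast markers to 239083, 413167, 379752 and 229432 CPM, and the 3 most abundant genes took 42.4, 56.1, 53.1 and 44.1% of counts. Adult replicate 2 was thus the lowest in early genes and in summed chondrocyte markers and the highest in summed osteoblast markers. The osteoblast sum was mostly Col1a1 (3602953 counts in adult replicate 2, with Ibsp next at 16694). Single osteoblast markers differed in order. Alpl had most counts in adult replicate 3 (12901, against 12199 in replicate 2) and Bglap in replicate 2 (5713, against 4179 in replicate 3). The part of these measures in the adult spread was not tested. The share of counts that the 40 genes took is lowered by abundant genes, whereas the CPM values above are scaled by TMM.

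**Figure D5:**
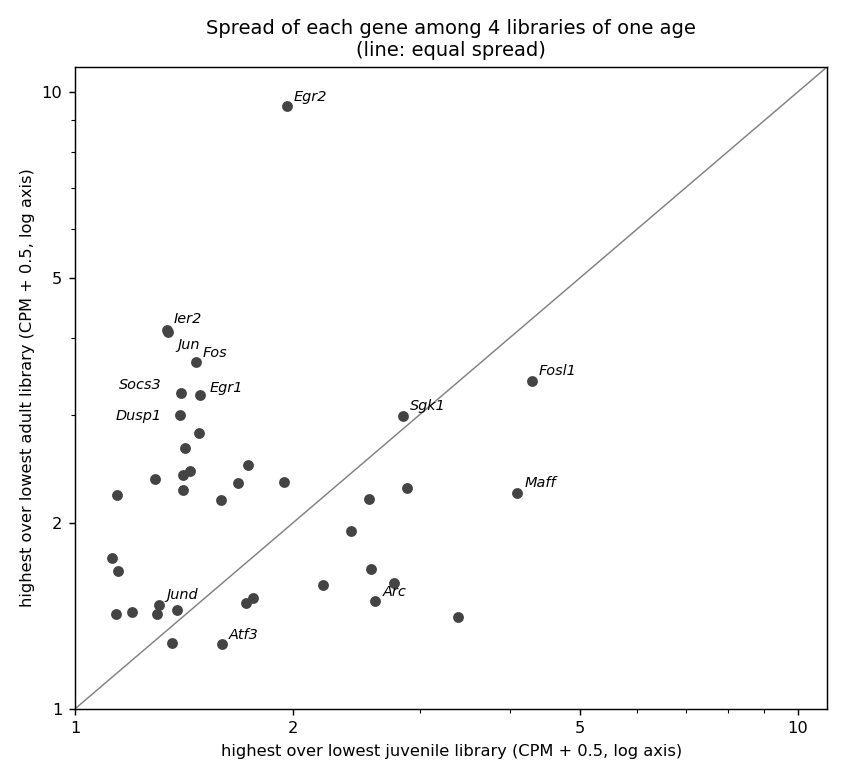
Ratio of the highest to the lowest library for each of the 40 genes, in juvenile (x axis) against adult libraries (y axis), on CPM + 0.5 and log axes, with a line of equal spread. Of the 40 points 26 lie above the line, among them Egr2 at an adult ratio of 9.49, and Fosl1, Maff, Arc and Atf3 lie below it.

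The other genes of the pathway were counted in lists. Of all genes tested, 18.4% were called higher and 16% lower in c-Myc cells, the background of the c-Myc counts below. For c-Myc + R172H cells these shares were 19.6% and 17.9%, and between the ages 1.89% and 3.23%. Of 22 upstream genes (MAP kinases, the kinases around them and the SRF, ELK and CREB factors they act on), 3 rose in c-Myc cells, the kinase gene Rps6ka1 (2.14 ± 0.30), Srf (1.13 ± 0.17) and Atf1 (1.04 ± 0.17), and none fell. With library totals 6 were called higher and 0 lower. The c-Myc + R172H comparison had 3 called higher and 1 lower. Srf, which codes for the factor that binds CArG boxes, had a mean of 50.4 ± 1.61 CPM in c-Myc (SD, n = 2) against 22.6 ± 5.43 CPM in juvenile cells (n = 4). Of 11 tested AP-1 relatives and MAF genes 1 rose, Mafk (1.73 ± 0.19), and 2 fell, among them Maf (-1.41 ± 0.15). In c-Myc + R172H cells 1 of these genes rose and 3 fell, and with library totals the c-Myc calls were 5 higher and 0 lower. Mafk, like Maff, codes for a small MAF protein, and Maf codes for a large one with an activation domain. Between the ages Batf3 was lower in juvenile cells (-3.23 ± 0.77, adjusted p = 0.0228), at 0.457, 0.722, 0 and 0.248 CPM in juvenile and 6.27, 2.03, 2.2 and 3.84 CPM in adult libraries.

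Feedback genes of the ERK route, which are known targets of ERK signalling, were called in both directions. Of 11 tested, Spry1 (-1.73 ± 0.20), Spry2 (-1.45 ± 0.26), Etv5 (-1.31 ± 0.26) and Spry4 (-1.30 ± 0.32) fell in c-Myc cells beside Dusp6, and Dusp9 rose (3.83 ± 0.51). Dusp9, a phosphatase gene on the X chromosome, was at 0.548, 1.03, 0.834 and 0 CPM in juvenile and 9.08 and 8.78 CPM in c-Myc libraries, of which 1 was the library with Xist. In c-Myc + R172H cells 4 of these genes fell and 1 rose, and between the ages 0 of 9 tested were called. With library totals 2 of the 11 were called higher and 0 lower in c-Myc cells. The calls of Spry1, Spry2, Etv5 and Spry4 did not hold on that scale.

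Of 27 other early genes tested, 2 rose and 6 fell in c-Myc cells. Those that rose were Dusp2 (3.73 ± 0.31), a nuclear phosphatase gene at 0.730, 1.13, 1.25 and 0.745 CPM in juvenile and 11.5 and 14.3 CPM in c-Myc libraries, and Errfi1 (1.08 ± 0.13), an inhibitor of the EGF receptor. The largest falls were those of Ccn2 (-2.13 ± 0.38), a matricellular target of YAP and TGF-beta, and of Id1 (-1.81 ± 0.33), Id2 (-1.56 ± 0.34) and Id3 (-1.53 ± 0.13), which answer to BMP signals. Between the ages Plk2 (1.15 ± 0.18) and Ptgs2 (1.06 ± 0.26), the gene of cyclooxygenase 2, were higher in juvenile cells, and Ccn2 (-1.61 ± 0.35), Id1 (-1.13 ± 0.28), Dusp8 (-1.03 ± 0.20) and Klf10 (-0.58 ± 0.14) lower. Against juvenile cells, 3 of the 27 rose and 8 fell in c-Myc + R172H cells. With library totals 10 were called higher and 2 lower in c-Myc cells.

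Around Socs3, 12 genes of the STAT3 pathway were tested, and 5 fell and 1 rose in c-Myc cells. The receptor genes Osmr (-1.86 ± 0.24) and Lifr (-1.49 ± 0.11) and the inhibitor gene Socs2 (-1.47 ± 0.23) fell together with Socs3, and the interleukin 11 receptor gene Il11ra1 rose (1.93 ± 0.31). Lifr was at 527, 528, 433 and 539 CPM in juvenile, 483, 790.1, 582 and 407 in adult, 173 and 193 in c-Myc and 161 and 160.4 CPM in c-Myc + R172H libraries. Between the ages Jak2 was higher in juvenile cells (0.55 ± 0.15, adjusted p = 0.0381), with groups that overlapped. Of 12 NF-kB and cytokine genes tested, Lif (1.23 ± 0.41) and Nfkbib (1.02 ± 0.28) rose and Birc3 (-1.61 ± 0.30) fell in c-Myc cells, and 0 of 11 tested were called between the ages. In c-Myc + R172H cells 1 rose and 5 fell in the STAT3 list and 1 rose and 3 fell in the NF-kB list. With library totals the c-Myc calls were 3 higher and 1 lower in the STAT3 list and 6 higher and 0 lower in the NF-kB list. Between c-Myc + R172H and c-Myc cells 0 genes of any of these lists were called.

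In GRCm38, the build called mm10, the protein-coding genes with the leading results lie at chr12:85473890-85477273 (Fos, plus strand), chr16:15887286-15891031 (Cebpd, plus strand), chr15:74669083-74672570 (Arc, minus strand) and chr10:21882184-21999903 (Sgk1, plus strand). Overlapping genes limit some of these values. By the GENCODE annotation of GRCm38, 14 of the 40 genes share bases with a gene on the other strand, among them Jun with Junos, Junb with Prdx2, Jund with Gm11175, Fosl1 with Ccdc85b, Dusp1 with Ergic1 and Dusp5 with AC137853.2. For Dusp1 and Csrnp1 a gene of the same strand overlaps as well, AC122252.1 and AC122252.4 with Dusp1 and Cx3cr1 with Csrnp1. The strand setting of the counting is not given in the sources used here, so reads of overlapping partners could not be told apart from those of these genes.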

How the data were processed

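RNA of 12 libraries (4 juvenile, 4 adult, 2 c-Myc, 2 c-Myc + R172H) was sequenced from GFP-positive metaphyseal cells by the authors. Per the submitters' processing notes, bcl2fastq 2.20, cutadapt 4.6, STAR 2.7.11a and HTSeq 2.0.5 were used with mm10, and the authors deposited raw read counts per gene for 32288 genes and transgenes, without normalization. The study's methods name different GENCODE releases for alignment and counting. The strand setting is not given in the sources used here.

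Libraries were grouped by their titles. Counts of every pair of replicates differed by more than sampling noise (chi-square per degree of freedom 5.45 to 136). In R 4.3.3, the quasi-likelihood test of edgeR 4.0.16 was applied (TMM factors, default filter on low counts, robust fitting, Benjamini-Hochberg adjustment), with 8 libraries in the age fit and 8 (juvenile and induced) in the shared fit of the other comparisons. For CPM, library sizes were multiplied by TMM factors computed over all 12 libraries. An SE was approximated from the F statistic as log2 fold change over its root. Per-length values use the union of annotated exons, and promoter sequences come from RefSeq. The fit was tested on simulated data. The level of 3 counts covers counting error only.

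Alternatives were other normalizations and filters, DESeq2 1.42.0, other sets of libraries, a replicate block, each library left out, and 3 genes removed. Values in every library are given for FOS, JUN, EGR and NR4A genes, for called members with the largest changes and for the uncalled members with the smallest p in each comparison, and up to 4 called genes per list are named. Some genes of these lists are not reported here. The other members' values were added for completeness. The members, lists and rules were chosen with earlier results of these data known.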

Additional observations from a re-analysis of the deposited data

Results flagged for a closer look

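Of 80 pairs of a gene and a control group, 4 held a library that stood apart from the other 3 by Dixon's criterion, which chance gives in about 1 of 20 groups. Nr4a2 was at 60.0 CPM in adult replicate 3 and between 23.9 and 28.8 CPM in the other adult libraries. Dusp5 was at 37.0 CPM in the same library and between 21.8 and 23.4 CPM in the others. Klf4 was at 267 CPM in adult replicate 4 and between 187 and 192 CPM in the other adult libraries. Klf6 was at 96.3 CPM in juvenile replicate 1 and between 122 and 125 CPM in the other juvenile libraries.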

How the results depend on the processing

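Counts of called members changed by over 1.5 times under these settings. Between juvenile and adult cells 4 were called, against 7 without the filter on low counts, 10 with DESeq2, 10 with all 12 libraries in the fit, 2 with a minimum log2 fold change of 1, and 1 to 7 with a single library left out (all genes tested: 5.12%, against 5.79, 7.05, 8.41 and 2.34% under the named settings). With a single library left out, 2.45 to 7.64% of all genes were called. Between c-Myc and juvenile cells 13 were called, against 22 by adjusted p alone (all genes: 34.4 and 53.4%) and 13 to 15 with a juvenile library left out (all genes: 34.5 to 35.4%). Between c-Myc + R172H and c-Myc cells 0 were called, against 2 without the filter, 1 of 35 tested with DESeq2 and 11 with only these groups in the fit (all genes: 0.469%, against 1.17, 2.78 and 5.17%). These 11 were 9 higher and 2 lower with R172H (all genes: 1.55 and 3.62%). With any juvenile library left out, 0 members were called there. Between c-Myc + R172H and juvenile cells 12 were called, against 19 with library totals, 22 by adjusted p alone (all genes: 37.5%, against 56.7% under either) and 12 to 13 with a juvenile library left out (all genes: 37.5 to 38.4%). With library totals the sign changed for Fos (0.076), Egr1 (1.01), Zfp36 (0.26) and Gadd45g (0.17) in that comparison, for Jund (0.25), Egr1 (0.56) and Per1 (0.69) between c-Myc and juvenile cells, and for Klf4 (0.059) and Gadd45a (0.12) between the induced groups. Egr1 between c-Myc + R172H and juvenile cells also changed sign without the filter (0.0024), with the replicate block (0.10) and without juvenile replicate 3 (-0.14 to 0.041 with a library left out), and Per1 in c-Myc cells without juvenile replicate 2 (-0.31 to 0.26). The cause of these changes was not tested, except that a dropped fold threshold allows more calls. With the replicate number as a block, 4, 11, 5 and 11 members were called in the comparisons in the order above (all genes: 3.83, 36, 2.59 and 39%). Deviations of same-numbered juvenile and adult libraries correlated from -0.079 to 0.054, and juvenile and induced ones from -0.040 to 0.056. By this check the numbers did not pair those libraries, so there the block rests on a shared number only. The 2 induced pairs share the value 0.175, since with 2 libraries a group both pairs must correlate alike. In both induced groups replicate 2 was the library with high Xist, so between them the number cannot be told apart from sex. RLE and upper-quartile normalization, a minimum of 10 counts in every library and removal of Col1a1, Col1a2 and Gm26917 left all 4 counts within 1.5 times. The minimum of 10 counts left 38 members, without Fosl1 and Maff. Under it 1 member was called higher in each comparison with juvenile cells, in place of 3, so the rises of Fosl1 and Maff were not tested there. Among the 57 fold changes of members that were called or are given in the text, 910 alternative values kept direction and call, 36 lost the call, 50 gained it and 13 changed sign. Over all 160 fold changes (40 genes in 4 comparisons), 127 of 2827 alternative values changed sign, 43 of them with library totals and 0 of them for a called fold change. Between the induced groups, with 2 libraries each, Sgk1 (0.74 ± 0.33) was called in 2 of 18 alternatives, with adjusted p of 0.00222 to 1.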

Other observations

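Stress genes outside the list were counted as well. Of all genes tested, 18.4% were called higher and 16% lower in c-Myc cells, and 19.6% and 17.9% in c-Myc + R172H cells. Of 13 heat shock genes tested, 7 rose and 2 fell in c-Myc cells. The mitochondrial chaperone genes Hspd1 (3.53 ± 0.13) and Hspe1 (2.99 ± 0.26) and the cytosolic chaperone genes Hsph1 (2.67 ± 0.22) and Hsp90aa1 (2.33 ± 0.14) rose the most. Hspd1 was at 44.8, 42.8, 39.2 and 29.1 CPM in juvenile, 85.3, 60.4, 55.0 and 76.8 in adult, 455 and 463 in c-Myc and 469 and 444 CPM in c-Myc + R172H libraries. Those that fell were Dnajb1 (-1.41 ± 0.13) and Hspa1a (-1.14 ± 0.38), which are known to be strongly induced by heat, named after their values were seen. In c-Myc + R172H cells 6 rose and 3 fell. With library totals 9 were called higher and 0 lower, and Dnajb1 and Hspa1a were then at -0.59 and -0.32 in c-Myc cells. Between the ages 1 of 13 was called, Hspd1, lower in juvenile cells (-0.84 ± 0.16, adjusted p = 0.00759).

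Of 13 genes of the integrated stress response, which slows protein synthesis through eIF2alpha and raises ATF4, 5 rose and 1 fell in c-Myc cells. Phgdh (2.23 ± 0.12), Asns (1.89 ± 0.13) and Psat1 (1.37 ± 0.09), enzymes of serine and asparagine synthesis, rose, and the kinase gene Eif2ak3 fell (-1.56 ± 0.14). Asns was at 15.2, 16.3, 16.3 and 20.1 CPM in juvenile, 21.8, 14.3, 18.2 and 12.4 in adult, 66.9 and 60.6 in c-Myc and 51.0 and 58.6 CPM in c-Myc + R172H libraries. Trib3 was among the 5 called, at 0.274, 0, 0 and 0 CPM in juvenile, 0, 0.677, 2.2 and 0.107 in adult, 1.28 and 1.98 in c-Myc and 1.37 and 1.98 CPM in c-Myc + R172H libraries, and no fold is given because its juvenile level was at or under that of 3 counts. In c-Myc + R172H cells 5 rose and 2 fell. With library totals 6 were called higher and 0 lower. Between the ages 0 of 12 tested were called.

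Of 11 tested genes that answer to glucocorticoids or cAMP, Mt1 (2.67 ± 0.38) and Fkbp5 (1.82 ± 0.23) rose in c-Myc cells along with Sgk1, and Pde4d (-1.51 ± 0.28) and the parathyroid hormone receptor gene Pth1r (-1.08 ± 0.08) fell. Fkbp5, a classical glucocorticoid target, was at 11.1, 16.8, 8.2 and 7.95 CPM in juvenile, 19.6, 12.4, 11.9 and 11.8 in adult, 40.0 and 40.0 in c-Myc and 41.5 and 40.0 CPM in c-Myc + R172H libraries. Of the other known glucocorticoid targets among the early genes, Per1 was at -0.12 ± 0.33 and Cebpd and Dusp1 fell. Tsc22d3 of the list was at -0.84 ± 0.20, and 7 of the 11 genes had a negative value, with a median of -0.84 beside 0.04 over all genes. Of the list, 2 genes rose and 2 fell in c-Myc + R172H cells. With library totals 3 genes of this list were called higher and 0 lower. Between the ages 0 of 11 were called, and between the induced groups 0 genes of these 3 lists were.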
